A study of Mus musculus with 4 samples.

Results

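The AP-1 family of transcription factors was examined in mouse osteoclast cultures with and without NFATc1. Its 8 members here were Fos, Fosb, Fosl1, Fosl2, Jun, Junb, Jund and Batf, chosen by name as every probe set whose only gene symbol is one of them. They gave 10 of the 22690 probe sets on the array: 5 for the 4 Fos genes, 4 for the 3 Jun genes and 1 for Batf. The genotypes, both of C57BL/6 mice, were compared with 2 arrays each. The wild-type mice were NFATc1 fl/fl MxCre- and the NFATc1-deficient mice NFATc1 fl/fl MxCre+, so both carried the floxed allele and differed by the Cre transgene. Mx-Cre is switched on by interferon and is not restricted to osteoclast precursors. Excision was induced by polyIC; the sources used here give neither the age of the mice nor whether MxCre- mice were treated too. Sorted marrow precursors from a pool of 3 mice (replicate 1) or 4 mice (replicate 2) were grown for 3 days with M-CSF and RANKL before RNA was taken. The labels' growth protocol describes sorted CD11b-negative, c-Kit-positive and c-Fms-positive cells, while the series' design text speaks of bone marrow macrophages.

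AP-1 is a dimer of basic leucine zipper proteins. Jun proteins can pair with themselves or with Fos proteins, whereas Fos proteins need a Jun partner to bind DNA, and Batf pairs with Jun proteins but lacks the transactivation domains of Fos. In osteoclast precursors, RANK signalling activates MAP kinases and induces c-Fos, and mice without c-Fos form no osteoclasts. AP-1 acts upstream of NFATc1, on whose gene it is known to act, and beside NFATc1, with which it binds composite sites in osteoclast genes.

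Fosl2, Batf and Jund were lower in the NFATc1-deficient cultures, and no member passed the test as higher. By the ratio of mean signals Fosl2 fell 2.27-fold, Batf 1.67-fold and Jund 1.39-fold. Fos, the member essential for osteoclast formation, was 1.24 times its wild-type mean and did not pass (adjusted p = 0.0616). Jun and Junb also did not pass, Fosl1 was dim and did not pass, and Fosb was dim on all 4 arrays. Unless an alternative is named, limma adjusted p-values come from a fit to the 13577 probe sets that passed a signal filter. It used the log2(signal + 23.3) scale, with Benjamini-Hochberg adjustment and a threshold of 0.05. Of 10 member probe sets 8 were bright enough to be tested, and 3 of these 8 fell, while 11.4% of all 13577 tested probe sets fell, 12.8% rose and 24.2% passed in either direction. No count over the members is read as a property of the family.

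To show the DNA in front of the members that fell, with Fos for comparison, the 250 bases before the annotated gene start follow. They were taken from the RefSeq promoter table for GRCm38.p6, which held 7 of the 8 members and not Fosl1. Capitals mark matches, on either strand, to any of 5 motifs: the AP-1 site TGANTCA, the cyclic AMP element TGACGTCA, its short form TGACG (contained in the full element), the NFAT core GGAAA and the TATA box TATAAA. Fosl2 lies on the plus strand at chr5:32136222-32136471, Jund on the plus strand at chr8:70697489-70697738, Batf on the plus strand at chr12:85686470-85686719 and Fos on the plus strand at chr12:85473640-85473889.
Fosl2: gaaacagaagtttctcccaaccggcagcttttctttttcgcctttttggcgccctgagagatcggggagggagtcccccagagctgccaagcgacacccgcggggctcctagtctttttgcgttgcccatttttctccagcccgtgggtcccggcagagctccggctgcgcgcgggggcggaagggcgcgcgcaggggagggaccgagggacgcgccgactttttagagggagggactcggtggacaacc
Jund: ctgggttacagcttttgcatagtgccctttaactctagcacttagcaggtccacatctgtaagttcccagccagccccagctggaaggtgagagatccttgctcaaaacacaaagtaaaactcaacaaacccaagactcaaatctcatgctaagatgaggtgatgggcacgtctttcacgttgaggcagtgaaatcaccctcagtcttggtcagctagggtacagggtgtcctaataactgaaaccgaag
Batf: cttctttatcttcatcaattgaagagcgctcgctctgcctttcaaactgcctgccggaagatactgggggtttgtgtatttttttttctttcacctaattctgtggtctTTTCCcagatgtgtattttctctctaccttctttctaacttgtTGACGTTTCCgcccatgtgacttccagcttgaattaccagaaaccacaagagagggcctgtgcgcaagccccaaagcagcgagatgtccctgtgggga
Fos: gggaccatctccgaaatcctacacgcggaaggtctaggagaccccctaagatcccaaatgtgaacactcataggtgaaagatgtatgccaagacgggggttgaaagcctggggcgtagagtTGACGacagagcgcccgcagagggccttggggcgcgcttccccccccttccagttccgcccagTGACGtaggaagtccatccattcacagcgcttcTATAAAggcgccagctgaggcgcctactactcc

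The windows of Fosl2 and Jund held none of the 5 motifs. Batf held the NFAT core at positions -141 and -93 and the short form at -98, counted from -1 at the base before the gene start, and the last 2 of these abut in TGACGTTTCC. The Fos window held short forms at -129 and -66 and a TATA box at -33. Among the 7 members in the table, 4 had the short form (Fos, Fosb, Junb and Batf), 2 the NFAT core (Jun and Batf), 1 the TATA box, and 0 the AP-1 site or the full cyclic AMP element. Over all 32851 promoter windows of this length, 17.8% held the short form, 55.6% the NFAT core, 12.4% the TATA box, 6.75% the AP-1 site and 1.55% the full element. GC content ran from 46.4% for Batf to 68.8% for Fosb, against a median of 52.4% over all windows. A match describes letters only, and these windows say nothing of distal sites.

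Fosl2 encodes Fra-2, a Fos protein of osteoclasts that is known to restrain osteoclast size. Its probe set 1422931_at gave 593.5 and 511.4 on the wild-type arrays and 207.7 and 279.9 on the NFATc1-deficient arrays. Both deficient signals lay well below both wild-type signals. The mean fell from 552 ± 58.1 to 244 ± 51.1 (SD, n = 2), a log2 change of -1.12 (SE 0.18, limma adjusted p = 0.00331). Its 95% interval ran from -1.53 to -0.71. The call held under all 12 alternatives, with changes from -1.31 to -0.89. The alternatives changed the processing or the model, or left out a single array, so this count does not measure spread between mouse pools. The interval rests on a limma variance drawn in part from the other tested probe sets, so it is not the spread of these pools alone. With 2 arrays a group, the precision of every value here is limited.

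Fos encodes c-Fos, the founding member. Its probe set 1423100_at gave 5938.5 and 6125.8 in wild-type cultures and 7176.7 and 7808.2 in NFATc1-deficient cultures. The deficient signals were both higher and the groups did not overlap, as was the case for 63.2% of all tested probe sets. Mean signal was 6032 ± 132 and 7492 ± 447 (SD, n = 2), a log2 difference of 0.31 (SE 0.10, 95% interval 0.07 to 0.55, limma adjusted p = 0.0616). Fos passed as higher with quantile normalization (adjusted p = 0.00711), with a replicate block (0.0309) and without wild-type replicate 2 (0.0380). Over all 12 alternatives its adjusted p ran from 0.00711 to 0.382.

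Fosl1 encodes Fra-1, which is known to be able to stand in for c-Fos in osteoclast formation. The brighter probe set, 1417487_at, gave 57.4 and 38.2 in wild-type and 98.3 and 68.5 in NFATc1-deficient cultures. Its deficient signals were the higher ones, with a log2 difference of 0.58 (SE 0.31, 95% interval -0.12 to 1.29, limma adjusted p = 0.213). Probe set 1417488_at gave 26.7 and 5.5 against 52.3 and 36.5 and was not tested, because its mean lay below the filter at a signal of 61.95. Both probe sets were higher on both deficient arrays, but several of these signals lie near the pseudocount of 23.3, and no detection calls were used here. The brighter one passed the filter only through the deficient arrays (mean 83.4, against 47.8 in wild-type cultures), so its test supports nothing on its direction.

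Fosb, another immediate early Fos gene, was represented by 1422134_at alone. It gave 14.7 and 11.5 in wild-type and 8.7 and 5.5 in NFATc1-deficient cultures. Its mean lay below the filter at 61.95, so the log2 difference of -0.26 was not tested. All 4 signals also lay below the pseudocount, so the size of the difference depends on that constant (-0.82 with a pseudocount of 1).

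**Figure D1:**
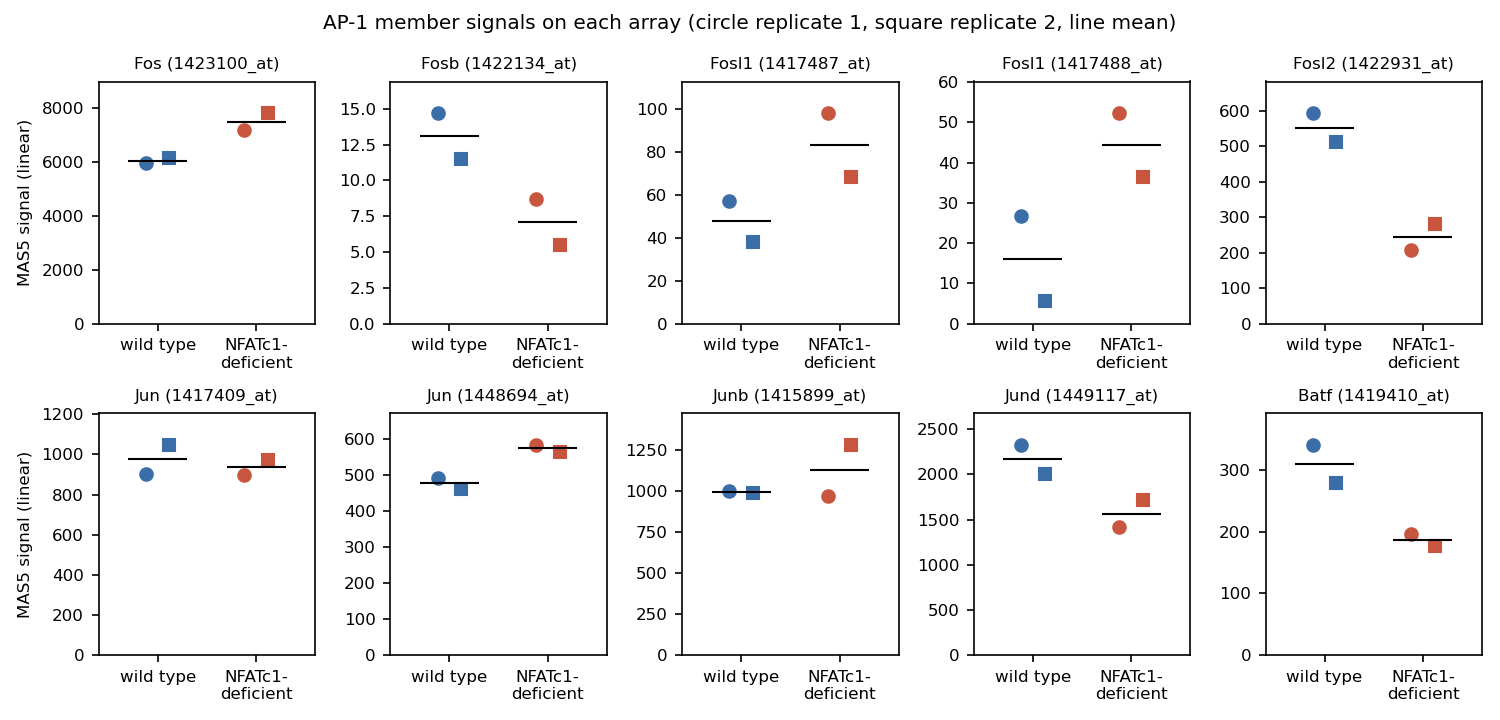
MAS5 signal (linear, y axis from 0, scaled per panel) of each AP-1 probe set on the 2 wild-type (blue) and 2 NFATc1-deficient (red) arrays; circles are replicate 1, squares replicate 2 and lines the means. Fosl2, Jund and Batf lie lower on both deficient arrays, Fos higher on both, and Junb and the brighter Jun probe set overlap between genotypes.

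Among the Jun genes, Jund fell and the others did not pass. JunD is a broadly expressed Jun protein and a common partner of Fos proteins. Probe set 1449117_at gave 2329.9 and 2002.9 in wild-type and 1414.4 and 1711.2 in NFATc1-deficient cultures. Both deficient signals were lower, and on the log2 scale the gap between the nearest arrays was narrower than for Fosl2. The mean fell from 2166 ± 231 to 1563 ± 209.9 (SD, n = 2), a log2 change of -0.47 (SE 0.13, 95% interval -0.77 to -0.17, limma adjusted p = 0.0328). Jund did not pass with median scaling (adjusted p = 0.0632), without the filter (0.0748), without the variance trend (0.111), without wild-type replicate 1 (0.0978) or without NFATc1-deficient replicate 1 (0.191).

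Jun encodes c-Jun, the target of the JNK kinases. Its brighter probe set, 1417409_at, gave 903.5 and 1049.1 in wild-type and 898.4 and 974.4 in NFATc1-deficient cultures, and the groups overlapped. The log2 difference was -0.06 (SE 0.13, 95% interval -0.34 to 0.23, limma adjusted p = 0.792). The dimmer probe set, 1448694_at, gave 492.1 and 462.4 against 585.2 and 563.8. Its signals did not overlap and were higher in the deficient cultures, but the difference of 0.26 did not pass (SE 0.13, 95% interval -0.04 to 0.56, limma adjusted p = 0.200). The 2 Jun probe sets thus differed in sign, and neither passed under any of the 12 alternatives.

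Junb encodes JunB, a Jun protein with weaker transactivation than c-Jun. Probe set 1415899_at gave 997.4 and 987.9 in wild-type and 970 and 1280.8 in NFATc1-deficient cultures. One deficient array lay just below and the other above the wild-type arrays. The log2 difference was 0.16 (SE 0.14, 95% interval -0.17 to 0.49, limma adjusted p = 0.461).

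Batf encodes a short basic leucine zipper protein that pairs with Jun proteins and is best known from lymphocytes and dendritic cells. Probe set 1419410_at gave 341.1 and 279.5 in wild-type and 196.3 and 175.9 in NFATc1-deficient cultures. The deficient signals were lower and closer to each other than the wild-type ones. The mean fell from 310.3 ± 43.6 to 186 ± 14.4 (SD, n = 2), a log2 change of -0.67 (SE 0.19, 95% interval -1.09 to -0.25, limma adjusted p = 0.0312). It did not pass without the filter (adjusted p = 0.0758), without wild-type replicate 1 (0.114), without NFATc1-deficient replicate 1 (0.0747) or without NFATc1-deficient replicate 2 (0.108).

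**Figure D2:**
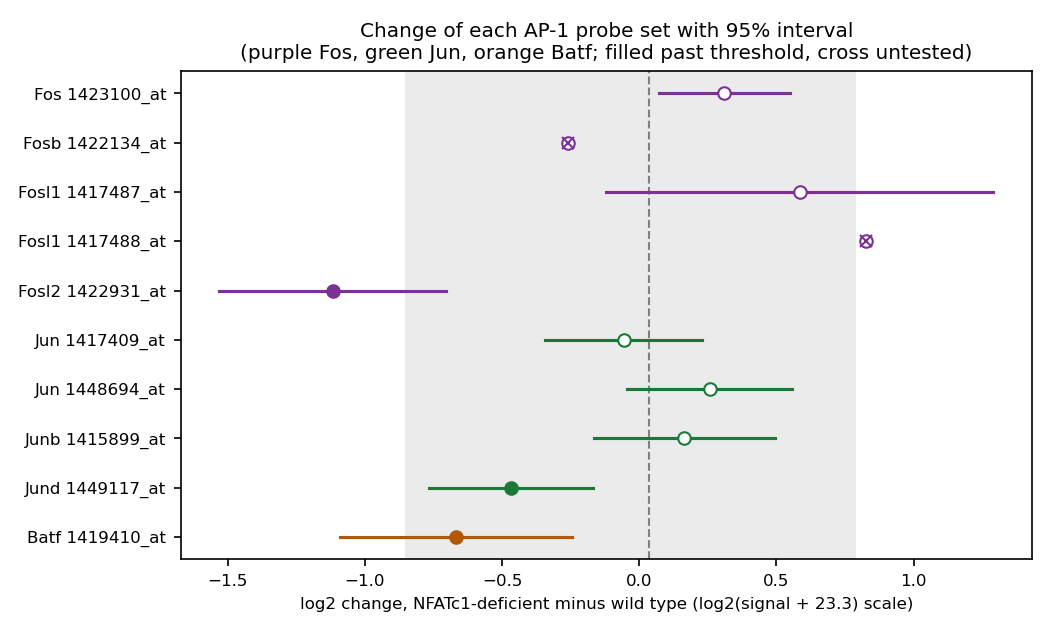
Log2 change (NFATc1-deficient minus wild type, x axis) of each AP-1 probe set with its 95% interval from limma; filled points passed the threshold, open points did not and crosses were not tested. The grey band spans the 5th to 95th percentile of all tested probe sets (-0.85 to 0.78) and the dashed line is their median (0.04); among tested members only Fosl2 lies outside the band.

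Fos members were next set against Jun members. With the brightest probe set of each gene, tested or not, the median log2 change was 0.03 over the 4 Fos genes and -0.06 over the 3 Jun genes, beside 0.04 over all tested probe sets. The difference between these medians, 0.08, reversed to -0.20 with a pseudocount of 1, to -0.075 when probe sets of a gene were averaged and to -0.045 without wild-type replicate 2. Each side held 1 gene that fell, Fosl2 and Jund. Changes among the Fos probe sets ran from -1.12 to 0.83 and among the Jun probe sets from -0.47 to 0.26.

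Single members were then set against each other. On each array the log2 value of Fosl2 was taken relative to that of Fos. This difference was -3.27 and -3.52 in wild-type and -4.96 and -4.69 in NFATc1-deficient cultures, a shift of -1.43. Jund relative to Junb went from 1.21 and 1.00 to 0.53 and 0.41, a shift of -0.63. Relative to Jun, Jund went from 1.34 and 0.92 to 0.64 and 0.80, a shift of -0.41. Fosl2 relative to Jund went from -1.93 and -1.92 to -2.64 and -2.52, a shift of -0.65. In all 4 contrasts the deficient values lay below both wild-type values. They were chosen after the values were seen, and the two-sided exact permutation p was 0.333 for each, also after adjustment over the 4, which is the smallest p that 2 against 2 arrays allow. Only shifts between genotypes can be read from them, since signals of different probe sets are not on 1 scale.

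The state of the cultures stands beside these values. Nfatc1 signal at 1417621_at was 5433.6 and 6146.7 in wild-type and 3018.2 and 4097.9 in NFATc1-deficient cultures, a log2 change of -0.71 (SE 0.15, limma adjusted p = 0.0104). It did not pass without NFATc1-deficient replicate 1 (adjusted p = 0.0871) or without the variance trend (0.0613). A second Nfatc1 probe set, 1425761_a_at, gave 2680.7 and 2860.4 in wild-type and 1718 and 2078.6 in NFATc1-deficient cultures. Its log2 change was smaller, at -0.55 (SE 0.12, limma adjusted p = 0.0129), and did not pass without the variance trend (0.0676). Without NFATc1-deficient replicate 1 the change at this second probe set was -0.41 and also did not pass. Where these probe sets lie relative to the deleted part was not analysed here. All 6 osteoclast markers on the array fell, and their summed signal was 29106 and 33291 in wild-type and 11121 and 15911 in NFATc1-deficient cultures. Without NFATc1-deficient replicate 1 the Ctsk change was -0.66 and did not pass. Itgb3 (mean 553 in wild-type and 7.4 in deficient cultures) and Calcr (739 and 29.3) passed the filter at 61.95 only through the wild-type arrays. Their tests therefore support nothing on direction. Of 5 tested macrophage markers 2 fell and 1 rose (sums of 22736 and 26807 against 18646 and 18691), but 0 passed without NFATc1-deficient replicate 1 or without the variance trend. Of 7 granulocyte markers 3 rose (4829 and 5720 against 14611 and 7093), as did 3 of 6 antigen presentation markers (5524 and 4619 against 7350 and 6742). Without NFATc1-deficient replicate 1 each of these counts was 1, and the granulocyte count ran from 0 to 6 over all 12 alternatives, with 0 without the filter or the variance trend and 6 without NFATc1-deficient replicate 2. Of 7 lymphoid markers 2 were bright enough to be tested and 1, Il7r, rose. Their sums were 594 and 342 against 653 and 626. None of the 6 tested progenitor, stromal and erythroid markers passed, although 2 progenitor markers rose with median scaling and 1 with the replicate block. Progenitor calls also appeared on omission of wild-type replicate 1 or of NFATc1-deficient replicate 2. In these lists 0 markers were at a signal of 0, while Ncr1, Alas2 and Col1a1 were below the pseudocount on all 4 arrays. In such bulk cultures, fewer cells of a type and less RNA per cell cannot be told apart, and the part of these markers in the changes of Fosl2, Jund and Batf was not tested. Xist signal at 1436936_s_at was 3595.4 and 2690 in the replicate 1 arrays and 106.1 and 111.4 in the replicate 2 arrays, so pools differed in sex by replicate number in both genotypes.

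The genes with profiles nearest to the members that fell were named by distance over the 4 arrays, after each log2 value was centred on its mean. For Fosl2 they were Galt (distance 0.07, log2 change -1.17), Aig1 (0.10, -1.11) and Pde4dip (0.12, -1.18), out of 3276 genes of like level. For Jund they were Wipf1 (0.05, -0.44), Mrpl15 (0.05, -0.49) and Hadha (0.11, -0.50), out of 1846 genes. For Batf they were Atg12 (0.05, -0.63), Ap2a1 (0.07, -0.66) and Tmem203 (0.10, -0.63), out of 3070 genes. With 4 arrays such likeness is a description only.

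Other basic leucine zipper factors, which share or compete for AP-1 partners and sites, were counted in 3 lists. With 1 probe set per gene, 11.9% of all 7798 tested genes fell and 12.9% rose. Of 14 tested JDP, ATF and CREB factors 2 fell and 0 rose (median log2 change -0.14, beside 0.03 over all genes). Creb3l2, a membrane-bound factor of the secretory pathway, gave 620.2 and 552.6 in wild-type and 118.5 and 147.4 in NFATc1-deficient cultures, a log2 change of -1.97 (SE 0.18, limma adjusted p = 0.000269). That is a larger fall on this scale than that of any AP-1 member, and its second probe set also fell (-1.28). Creb3 fell by 0.61 on the log2 scale, with -0.67 at another probe set that passed and 0.03 at one that did not. Crem (-0.55, adjusted p = 0.144) and Creb1 (0.30, adjusted p = 0.243) did not pass.

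Of 6 tested MAF and CNC factors 1 rose and 0 fell (median -0.02). Bach1, a repressor of antioxidant genes that pairs with small MAF proteins, gave 1026.2 and 1034.3 in wild-type and 1780.7 and 1613 in NFATc1-deficient cultures, a log2 change of 0.71 (SE 0.11, limma adjusted p = 0.00289). A second, dimmer Bach1 probe set had a difference of -0.0033 and did not pass. Nfe2l2 (-0.26), Nfe2l1 (-0.18) and Mafk (0.14) did not pass. Of 6 tested C/EBP and PAR factors 0 passed in either direction (median -0.09). Differences there were -0.64 for Dbp, 0.32 for Cebpa, -0.28 for Cebpd and 0.14 for Cebpg.

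MAP kinases carry the RANK signal to AP-1. Of 27 tested MAP kinase cascade genes 3 fell and 0 rose (median -0.0041), beside 11.9% and 12.9% over all genes. Only 1 fell without NFATc1-deficient replicate 1 or without the variance trend. Map2k3, which activates p38, changed by -0.60 (adjusted p = 0.00613), Map2k5, which activates ERK5, by -0.60 (adjusted p = 0.0405) and the p38 effector kinase Mapkapk2 by -0.44 (adjusted p = 0.0218), while Tab1 did not pass (-0.48, adjusted p = 0.107). Map2k5 did not pass without wild-type replicate 2 (adjusted p = 0.197), NFATc1-deficient replicate 1 (0.162), the filter (0.0888) or the variance trend (0.0877). Mapkapk2 did not pass with median scaling (0.0698) or without wild-type replicate 1 (0.0737), NFATc1-deficient replicate 1 (0.0944) or the trend (0.0748). Other Map2k5 probe sets did not pass (-0.63 and -0.26).

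Of 10 tested MAP kinase phosphatases 2 fell and 1 rose (median 0.25). Dusp6, which inactivates ERK, gave 658.9 and 686 in wild-type and 222.4 and 193 in NFATc1-deficient cultures, a log2 change of -1.59 (SE 0.15, limma adjusted p = 0.000372). Dusp3, a phosphatase of ERK and JNK, changed by -0.93 (adjusted p = 0.00126), while its other probe set did not pass (-0.16). Dusp1, an inducible phosphatase of p38 and JNK, rose from 311.3 and 262.2 to 681.6 and 563.8, a log2 change of 1.06 (SE 0.16, limma adjusted p = 0.00265). These 3 genes kept the call under every one of the 12 alternatives. Dusp19 had a difference of 0.47 (adjusted p = 0.0528), and its other probe set, at 0.49, passed (adjusted p = 0.0494). The first also passed with the replicate block (0.0268), with the stricter filter (0.0442) and without wild-type replicate 2 (0.0397).

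Cofactors and turnover factors of AP-1 gave 2 that fell and 1 that rose among 18 tested (median -0.0037). Trip6, a LIM protein reported as an AP-1 coactivator, gave 562.9 and 591.1 in wild-type and 243 and 312.3 in NFATc1-deficient cultures, a log2 change of -1.01 (SE 0.16, limma adjusted p = 0.00340). Itch, a ubiquitin ligase of c-Jun and JunB, fell by 0.62 on the log2 scale (adjusted p = 0.0109). Sirt1, a deacetylase, rose by 0.74 (adjusted p = 0.00458). Gsk3b, a kinase that marks c-Jun for degradation, did not pass (-0.49, adjusted p = 0.115).

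Of 21 tested immediate early genes outside AP-1, 3 fell and 4 rose (median 0.14), beside 11.9% and 12.9% over all genes. Dusp1 is in this list too. Zfp36l1, an RNA-destabilising protein, changed by -1.34 (SE 0.18, limma adjusted p = 0.00142) and Egr1, a zinc finger factor often induced together with Fos, by -1.22 (adjusted p = 0.00965). Egr1 signal was 210 and 150.5 in wild-type and 66.3 and 60.6 in NFATc1-deficient cultures, while Fos signal was higher on both deficient arrays. Myc, a growth factor-responsive transcription factor, gave 777.5 and 763.1 in wild-type and 1685 and 1494 in NFATc1-deficient cultures, a log2 change of 1.02 (adjusted p = 0.000744). The remaining calls were Rhob (-0.46), Ier3 (0.80) and Btg1 (0.37), and each was lost on omission of 1 array or another, with adjusted p up to 0.0638, 0.179 and 0.204. With median scaling Btg1 (adjusted p = 0.224) and Rhob (0.0601) did not pass. Without the variance trend Rhob (0.0649), Ier3 (0.0767) and Btg1 (0.113) did not pass, and without the filter Ier3 (0.128) and Btg1 (0.0720) did not. Without NFATc1-deficient replicate 1 the counts were 2 and 2, and 2 rose without the filter or the variance trend.

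**Figure D3:**
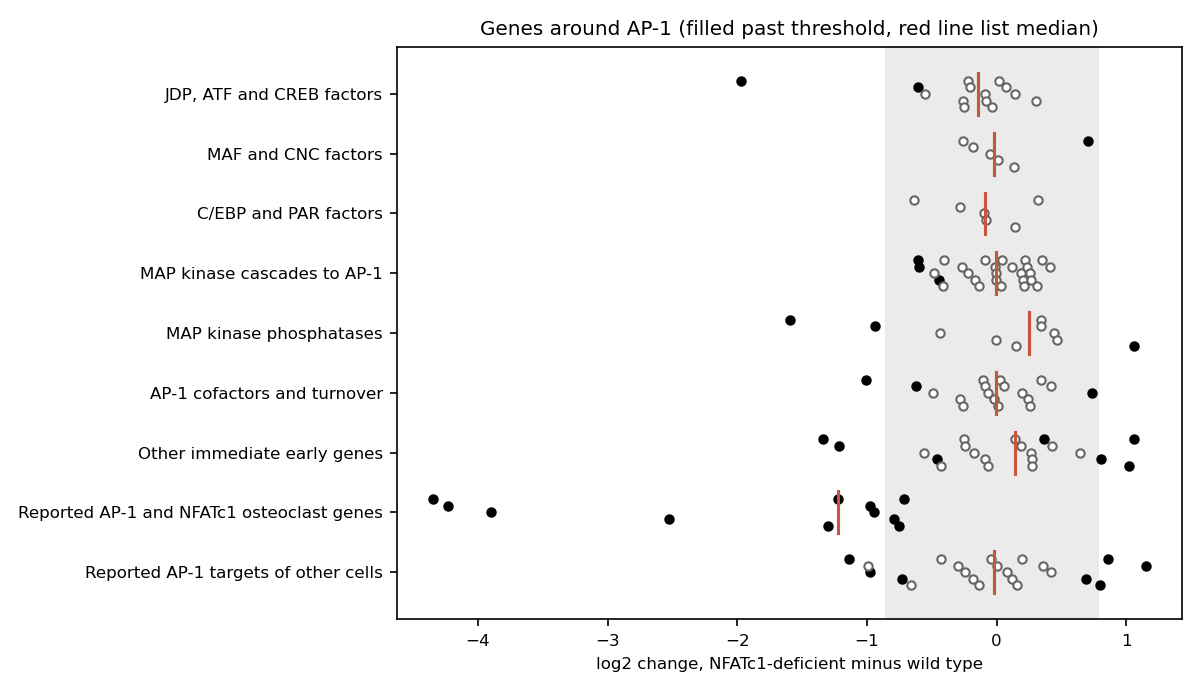
Log2 change (NFATc1-deficient minus wild type) of each tested gene in 9 lists around AP-1, 1 probe set per gene; filled points passed the threshold, red lines are list medians and the grey band is the 5th to 95th percentile of all tested probe sets (-0.85 to 0.78). The list of osteoclast genes lies to the left with a median of -1.22, while the other 8 medians lie between -0.14 and 0.25.

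Genes reported as AP-1 targets were counted in 2 lists. In the list of genes tied to AP-1 with NFATc1 in osteoclasts, 11 of 11 tested fell (median -1.22). Without NFATc1-deficient replicate 1 it was 8, as Ctsk (adjusted p = 0.0719), Mmp9 (0.131) and Nfatc1 (0.0871) did not pass. That list holds Nfatc1 itself and all 6 osteoclast markers counted above. It also holds genes whose fall was known when it was drawn up, so it is no separate support. The 4 named by the rule were Oscar, Itgb3, Calcr and Ppargc1b. Of these, Itgb3 and Calcr passed the filter only through the wild-type arrays, so their tests support nothing on direction. Deficient signals of Itgb3 (4.6 and 10.2) lay below the pseudocount, and those of Calcr (17 and 41.6) and Oscar (28.9 and 118.4) reached down to near it. The sizes of these 3 falls therefore rest on that constant and have no order; for Itgb3 the log2 change ran from -6.12 to -2.40 over the settings. Ppargc1b, which coactivates mitochondrial genes, was well above it on every array and changed by -2.53. Of 22 tested targets reported from other cells, 3 fell and 4 rose (median -0.02).

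Among those, cyclin D1 (Ccnd1) rose from 1023 and 854.6 to 2198.2 and 2029, a log2 change of 1.16 (SE 0.12, limma adjusted p = 0.000578). A second Ccnd1 probe set also passed (0.75) and the dimmest did not (0.77, adjusted p = 0.0508). The urokinase receptor gene Plaur (0.86), ezrin (Ezr, 0.80) and the cell cycle inhibitor Cdkn1a (0.69) rose as well. Hbegf, a ligand of the EGF receptor, changed by -1.14 (adjusted p = 0.00257), and its second probe set also fell (-1.05). Vegfa (-0.97) and the heme oxygenase Hmox1 (-0.73) fell, while another Vegfa probe set did not pass (-0.58). Lif, a cytokine linked to Fra-2 in bone, gave 120 and 172.2 in wild-type and 35.4 and 96.9 in NFATc1-deficient cultures, and its difference of -0.99 did not pass (adjusted p = 0.0807). Lif passed with median scaling (adjusted p = 0.00833), with the replicate block (0.0275), without wild-type replicate 1 (0.0241) and without NFATc1-deficient replicate 2 (0.0141). Cdkn1a lost the call without wild-type replicate 2 (adjusted p = 0.0837), NFATc1-deficient replicate 1 (0.119), the filter (0.0713) or the variance trend (0.0869). Vegfa lost it without either replicate 2 (0.0580 and 0.0555) or the filter (0.0556), and Ezr without the trend (0.0531). Over the alternatives 2 to 6 genes of this list fell and 2 to 5 rose, with 6 and 5 under the replicate block and without wild-type replicate 1.

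**Figure D4:**
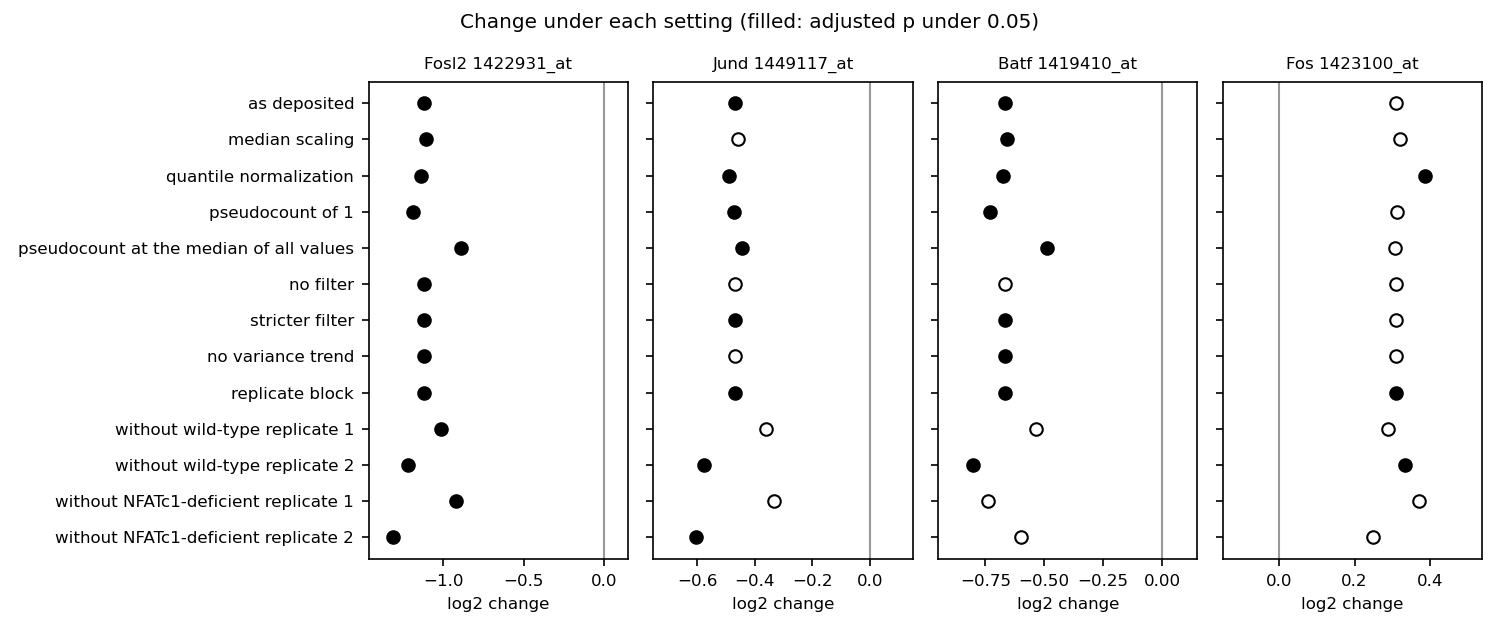
Log2 change (x axis) of Fosl2, Jund, Batf and Fos under the setting used in the text (as deposited) and 12 alternatives (rows); filled points had an adjusted p under 0.05. Fosl2 is filled in every row, Jund and Batf in part of the rows and Fos in 3, and no change crosses 0.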

How the data were processed

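The authors deposited 1 intensity per probe set for each of 4 arrays, on a linear scale; the submitters' processing notes name MAS5 as the tool. MAS5 gives 1 signal per probe set and scales each array by 1 factor, and no detection calls or scan dates were used here. Median signals ran from 111.6 to 130. Symbols came from the platform annotation: of 22690 probe sets 20393 had 1 symbol, 691 several and 1606 none. Entrez numbers matched 20364 to RefSeq names and changed 0.

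Signals were analysed as log2(signal + 23.3), the constant being the 25th percentile of all values, which understates changes of dim genes. After 64 control probe sets were left out, those with a mean signal above the 40th percentile (61.95) entered the test in limma 3.58.1, run in R 4.3.3 (lmFit, eBayes with an intensity trend, two-sided, Benjamini-Hochberg over 13577). A gene with several probe sets was represented in lists by its brightest tested one. Named were all member probe sets, up to 4 genes per list with the largest absolute change, the 3 nearest profiles of each called member and Nfatc1; remaining called genes of lists were named after their values were seen. The members and lists were chosen with earlier results of these data known. The fit was also run on simulated data with independent noise and with changes planted in brighter probe sets only. That run says nothing on dim members or on differences between pools.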

Additional observations from a re-analysis of the deposited data

How the results depend on the processing

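All 12 alternatives to the limma fit kept Fosl2 lower and called. The count of member probe sets that fell was 3 in the text, 2 with median scaling, 2 without the variance trend and 1 without a filter. It was also lower on some omissions of a single array. The count that rose was 0 in the text, and 1 (Fos) with quantile normalization and with the replicate block; leaving out single arrays gave 0 to 1. Over all probe sets, 1552 fell and 1740 rose. Without NFATc1-deficient replicate 1 the counts were 940 and 854, and over the 4 omissions they ran from 940 to 1546 and from 854 to 1945. Probe sets that rose numbered 1157 without a filter and 990 without the variance trend.

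The Fos minus Jun difference in median change (0.08) was 0.16 with quantile normalization, 0.16 with a pseudocount at the median of all values, -0.20 with a pseudocount of 1 and -0.075 when probe sets of a gene were averaged. Leaving out single arrays gave -0.045 (without wild-type replicate 2) to 0.21. On omission of single arrays, differences that did not pass changed sign for Jun at 1417409_at (-0.16 to 0.049), Junb (-0.033 to 0.36), Cebpa (-0.031 to 0.67, called without wild-type replicate 1) and Mafk (-0.017 to 0.29). The cause of these shifts was not tested.

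Replicate numbers recur in both genotypes. The labels tie them to pool size, and Xist shows that they also carry the sex of the pools in both genotypes. Deviations of same-numbered arrays correlated at 0.13 across probe sets, from 2 pairs. With replicate number as a block, 1799 probe sets fell and 2048 rose, 3 members fell, and Fos rose. Members at signals near 23.3 (Fosb, Fosl1) have differences whose size rests on the pseudocount.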
